A study of Cornus officinalis with 7 samples.

Results

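Of the 304371 unigenes assembled for *Cornus officinalis*, a dogwood whose fruit is used in traditional medicine, 5 unigenes annotated as amyrin oxidase (AO) were followed across the tissues of the plant. They were chosen from the 42 unigenes that the study annotated as AO by sequence similarity, and their tissue of highest expression was known when they were chosen. Unigene077149, Unigene001180 and Unigene014702 had their highest value in young stem, and Unigene173248 and Unigene279898 in seed. Because these values chose the unigenes, the contrast of young stem with seed is given as a description and carries no test. RNA-seq was performed on inflorescence, young stem, pericarp, seed, mature leaf, young leaf and mature stem. The plant material was 12 years old, grown outdoors and given no treatment. The paper does not state whether the tissues came from a single plant or were harvested at the same time. With 1 library per tissue, the spread between replicates is unknown, and no difference between tissues could be tested against it. Expression is given as FPKM, fragments counted relative to unigene length and to the mapped fragments of the library, so that levels can be compared between unigenes of different length.

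Amyrin oxidases stand at the step that gives ursolic and oleanolic acid, triterpenoid acids for which *C. officinalis* is known. Farnesyl diphosphate is joined to squalene, squalene is epoxidized, and an oxidosqualene cyclase folds the epoxide into a ring skeleton, which is amyrin when the enzyme is an amyrin synthase (AS) and lupeol when it is a lupeol synthase (LS). An oxidase then converts a methyl group of the skeleton to a carboxyl group, giving ursolic acid from α-amyrin, oleanolic acid from β-amyrin and betulinic acid from lupeol. In other plants this oxidation is performed by cytochrome P450 enzymes, and one of them, from the legume *Medicago truncatula*, accepts all of these skeletons. The AO label of the study does not say which skeleton a unigene acts on. None of the 42 AO unigenes (0 of 42) was on the study's list of 262 cytochrome P450 unigenes, which required a minimum length and an FPKM of 5 in some tissue, although 28 of the 42 reached an FPKM of 5 in at least 1 tissue. The annotation is used here as given. No nucleotide or protein sequence of the unigenes was used here.

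The mature stem library stood apart from the other 6. Unigenes whose value in each other tissue was below 1% of that in mature stem held 94.7% of its summed FPKM, and its Pearson's r with the other libraries on log2(FPKM + 1) lay between -0.30 and -0.25, whereas the other 6 correlated with each other at 0.63 to 0.84. In mature stem Unigene077149 and Unigene173248 had an FPKM of 0.10 and Unigene279898 of 0.11, and Unigene001180 and Unigene014702 were listed at 0. Comparisons below therefore use the other 6 tissues, and mature stem is given as values only. The tissue labels were not checked against marker genes, as no tissue markers are annotated in the sources used here. Relative to the deepest of the 6, young stem, the FPKM that a single fragment stands for was larger by a factor of 1.74 in inflorescence, the shallowest, 1.47 in pericarp, 1.07 in seed and 1.15 in each leaf stage. Low values, and values listed at 0, are accordingly less certain in inflorescence and pericarp.

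Unigene077149 was abundant in inflorescence and young stem and low in seed. Its FPKM was 116.12 in inflorescence, 136.57 in young stem, 16.69 in pericarp, 2.46 in seed, 21.23 in mature leaf and 63.37 in young leaf. Young stem and inflorescence, the neighbours at the top of this order, differed by 1.18 times, and without replicates it cannot be said whether that exceeds the spread between samples. The distance to the lowest tissue was far wider, at 55.5 times higher in young stem than in seed, or 5.31 on the log2(FPKM + 1) scale. It was also the AO unigene with the highest FPKM of the list in inflorescence and in young leaf. The next unigene number, Unigene077150, is also annotated as AO and had a different order of tissues, with 33.58 in mature leaf, 14.24 in young leaf and 5.89 in young stem. Whether these neighbours in numbering share sequence was not tested, and reads common to similar unigenes are divided between them by the estimation program.

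The other unigenes that peaked in young stem were expressed at a much lower level. Unigene001180 had an FPKM of 3.72 in inflorescence, 16.91 in young stem, 3.07 in pericarp, 4.98 in mature leaf and 9.74 in young leaf, and the seed library listed it at 0. It thus shared with Unigene077149 the low end in seed and the place of young stem at the top, but its inflorescence value was 22.0% of that in young stem, whereas that of Unigene077149 was 85.0%. Unigene014702 had an FPKM of 7.52 in young stem, and every other library, mature stem included, listed it at 0. A value of 0 need not mean that a unigene is absent from a tissue, and no ratio is given against it. The counts past 2-fold given below do include such values, as a constant was added to each FPKM before log2 was taken. Unigene300553, the AO unigene just below Unigene014702 among those that peaked in young stem, was not included in the 5 and had 6.99 FPKM there.

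Unigene173248 had the highest FPKM of any AO unigene in any tissue, and it was abundant in young stem and seed alike. Its FPKM was 238.68 in young stem and 283.54 in seed, and elsewhere 0.87 in inflorescence, 35.63 in pericarp, 0.29 in mature leaf and 1.69 in young leaf. It ranked 330th of the 151729 unigenes expressed above 0 in young stem and 238th of the 146245 in seed. Although it counts as a seed unigene by its maximum, the young stem value was only 0.25 lower than the seed value on the log2(FPKM + 1) scale, a ratio of 1.19, and with 1 library each its rank order between these tissues is not secure. The contrast within the shoot was steep, with 274 times less FPKM in inflorescence than in young stem. In this respect Unigene173248 and Unigene077149 parted: both were high in young stem, but only Unigene077149 was also high in inflorescence and young leaf.

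Unigene279898 was the clearer seed unigene. Its FPKM was 36.98 in young stem and 172.87 in seed, a difference of -2.19 on the log2(FPKM + 1) scale, or 4.67 times lower in young stem. Pericarp came second with 47.70, and the remaining values were 11.13 in inflorescence, 12.45 in mature leaf and 14.15 in young leaf. Unlike Unigene173248, it was therefore present at more than 10 FPKM in all 6 tissues.

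**Figure D1:**
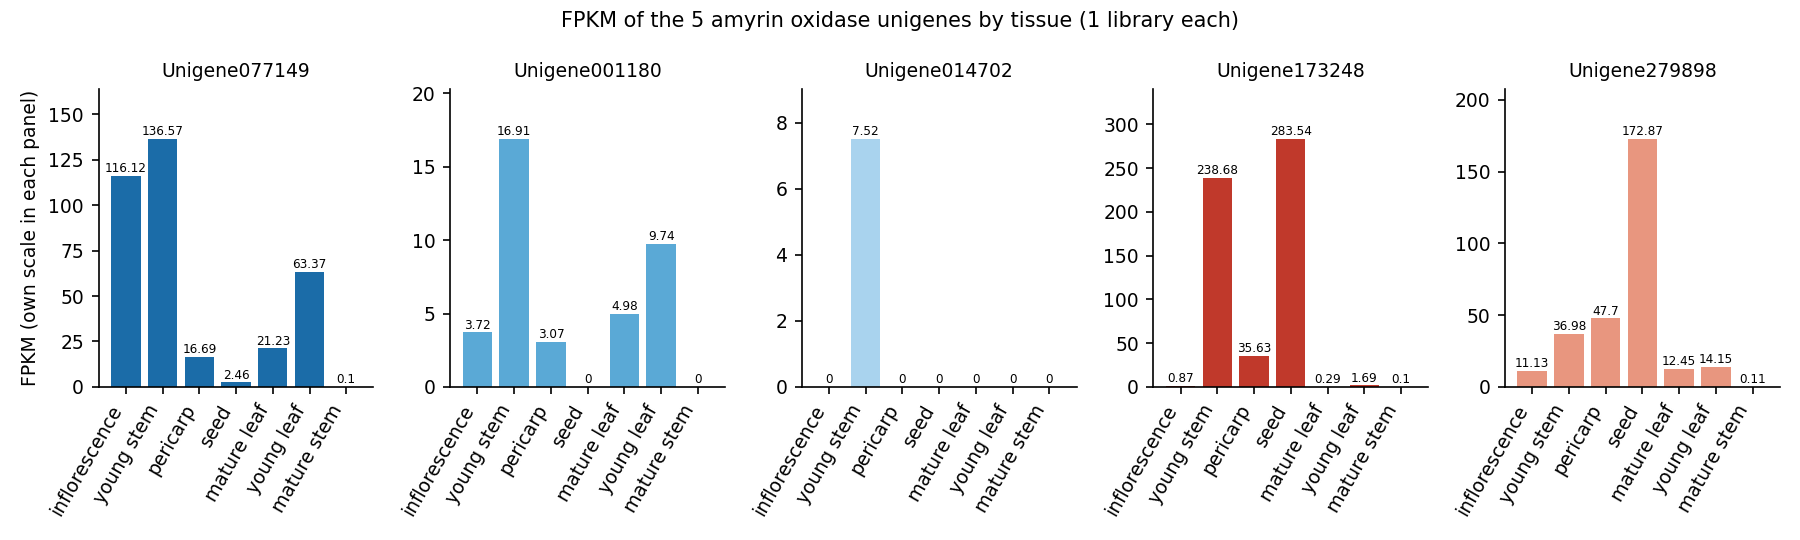
FPKM (vertical axis, linear, own scale in each panel) of the 5 amyrin oxidase unigenes in the 7 tissues, with 1 bar per library and the value above it. Blue panels peaked in young stem and red panels in seed. Unigene173248 reached 238.68 in young stem and 283.54 in seed, while Unigene014702 had a value above 0 in young stem alone.

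On the log2(FPKM + 1) scale, 3 of the 5 unigenes were at least 2-fold higher in young stem than in seed, 1 was at least 2-fold lower and 1, Unigene173248, was within 2-fold. Over all 189885 unigenes that reached 1 FPKM in any of the 6 tissues, 17.4% were at least 2-fold higher in young stem than in seed and 16% at least 2-fold lower. The unigenes were picked on this contrast, so their counts say nothing beyond the choice. Among all AO unigenes that passed the same filter (33 of 42), 10 were at least 2-fold higher in young stem and 10 at least 2-fold lower, and the median difference was -0.17 against 0 over all unigenes. These counts include the 5 chosen unigenes. Outside the 5, 7 AO unigenes were at least 2-fold higher in young stem and 9 at least 2-fold lower. The AO list thus held unigenes on both sides of this contrast.

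**Figure D2:**
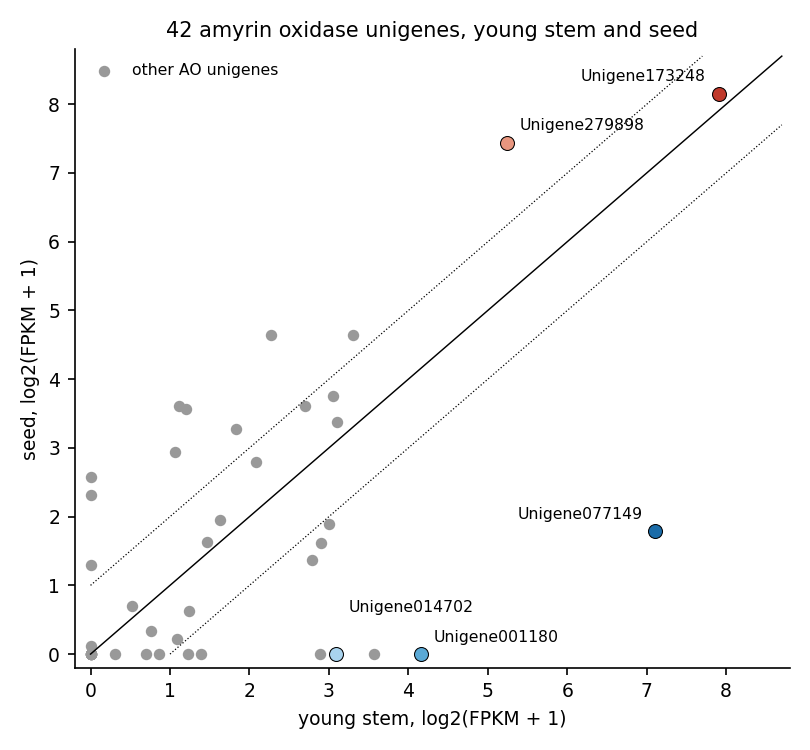
Level of each of the 42 amyrin oxidase unigenes in young stem (horizontal axis) and seed (vertical axis), both as log2(FPKM + 1), with 1 point per unigene. The solid line marks equal levels and the dotted lines a 2-fold difference. Unigene173248 lies near the solid line at the top, while Unigene077149 lies far below it with 136.57 FPKM in young stem and 2.46 in seed.

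The unigenes were grouped by the highest of the 6 tissues, so contrasts that include young stem or seed are in part fixed by the choice and are given as descriptions. In inflorescence against young stem, 4 of the 5 were at least 2-fold lower in inflorescence, against 19.4% of all unigenes tested, and none was at least 2-fold higher, against 17.1%. Unigene077149 was the exception, with a difference of -0.23. For the 3 unigenes with their maximum in young stem, a lower value in inflorescence follows from the choice. In pericarp against seed, the tissues of the fruit, the unigenes were split. Unigene077149 had 16.69 FPKM in pericarp and 2.46 in seed, and Unigene001180 had 3.07 in pericarp and was listed at 0 in seed, so that 2 of the 5 were at least 2-fold higher in pericarp (16.1% of all unigenes). Unigene173248 and Unigene279898 were 7.96 and 3.62 times lower in pericarp than in seed, so that 2 of the 5 were at least 2-fold lower (17.8% of all unigenes). A pericarp value below that of seed follows from the choice of these 2 by their maximum in seed, and Unigene014702 was listed at 0 in both tissues.

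Neither leaf stage was the highest tissue of any of the 5, which follows from their choice by a maximum in young stem or seed. Unigene014702 was listed at 0 in both, and the other 4 were lower in mature leaf than in young leaf, Unigene279898 by 0.17 on the log2(FPKM + 1) scale. Unigene077149 had 21.23 FPKM in mature leaf and 63.37 in young leaf, a difference of -1.53 on the log2(FPKM + 1) scale. Unigene173248 had 0.29 FPKM in mature leaf and 1.69 in young leaf, a difference of -1.06 between low values. Unigene001180, with 4.98 FPKM in mature leaf and 9.74 in young leaf, stayed within 2-fold at -0.84. Thus 2 of the 5 were at least 2-fold lower in mature leaf, against 11% of all unigenes tested, and 0 were at least 2-fold higher, against 10.4%. Of the other AO unigenes, 3 were at least 2-fold lower in mature leaf and 7 at least 2-fold higher.

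Together the 5 unigenes made up most of the AO expression in young stem and seed, the tissues by whose values they were chosen. They held 37.2% of the summed FPKM of the 42 AO unigenes in inflorescence, 82.7% in young stem, 43.7% in pericarp, 75.6% in seed, 15.1% in mature leaf and 41.2% in young leaf. In mature stem the share was 0.640%. The unigenes that peaked in seed dominated in young stem too. There Unigene173248 alone held 45.2% of the AO sum and Unigene279898 a further 7.01%, against 25.9% for Unigene077149, 3.20% for Unigene001180 and 1.42% for Unigene014702. In seed, Unigene173248 held 46.7% and Unigene279898 28.5%, whereas the unigenes that peaked in young stem held 0.405% between them. Inflorescence and young leaf showed the reverse, with 33.8% and 33.9% for the unigenes that peaked in young stem and 3.39% and 7.34% for those that peaked in seed. In pericarp the seed unigenes held 35.3% and the young stem unigenes 8.38%. The summed AO FPKM itself was 354.5 in inflorescence, 528 in young stem, 236 in pericarp, 607 in seed, 257 in mature leaf and 216 in young leaf.

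**Figure D3:**
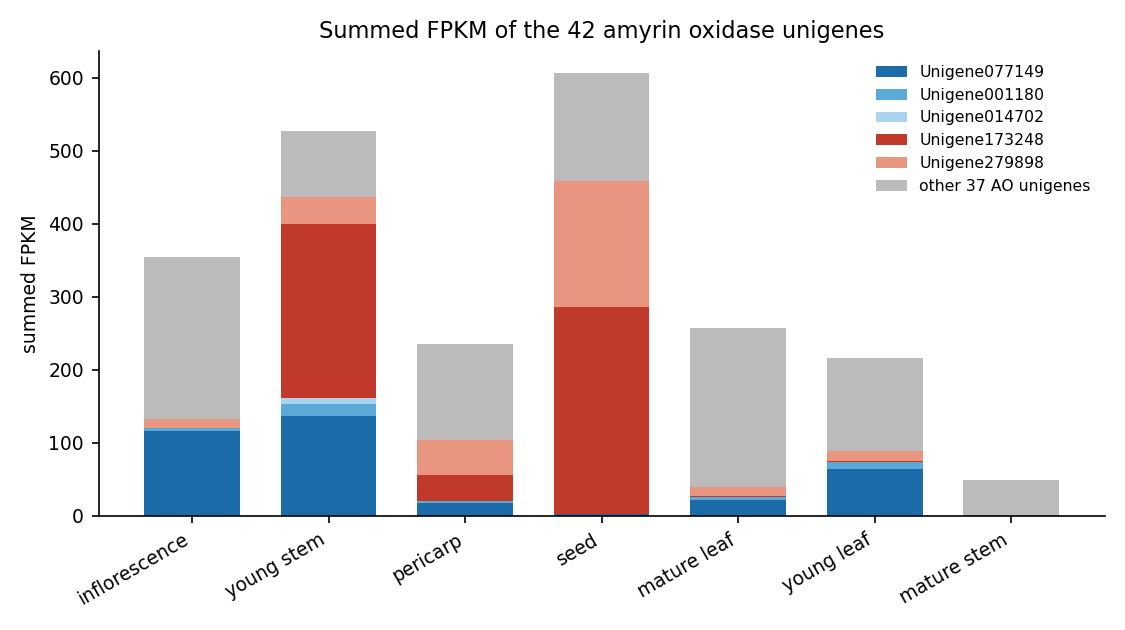
Summed FPKM (vertical axis) of the 42 amyrin oxidase unigenes in each of the 7 tissues, divided into the 5 unigenes and the other 37 (grey). The 5 unigenes make up 82.7% of the bar in young stem and 75.6% in seed, and 15.1% in mature leaf.

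None of the other 37 AO unigenes reached the highest values of Unigene173248, Unigene279898 and Unigene077149, but 8 exceeded the highest value of Unigene001180 and 15 that of Unigene014702. Among those above 0 in at least 1 of the 6 tissues, the median of the highest value was 6.70 FPKM, and the top value of any was 60.1, whereas Unigene173248, Unigene279898 and Unigene077149 each exceeded 100 FPKM. Of the 33 AO unigenes that passed the filter, 4 had their maximum in inflorescence (24% of all unigenes tested did so), 5 in young stem (16.8%), 1 in pericarp (18.3%), 10 in seed (19.4%), 10 in mature leaf (11.8%) and 3 in young leaf (9.64%). The 5 unigenes, chosen by such a maximum, make up 3 of those in young stem and 2 of those in seed. The counts in these tissues are therefore in part fixed by the choice. In expression level the 5 unigenes were unequal, and in breadth too. Unigene077149, Unigene173248 and Unigene279898 were above 0 in 6 of 6 tissues, Unigene001180 in 5 and Unigene014702 in 1. The index tau, which runs between 0 for even expression and 1 for expression in a single tissue, was 0.68 for Unigene077149, 0.75 for Unigene001180, 0.80 for Unigene173248, 0.86 for Unigene279898 and 1 for Unigene014702, beside a median of 0.79 over all unigenes tested.

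Across the 6 tissues, 4 of the unigenes formed pairs of like pattern. Pearson's r of log2(FPKM + 1) was 0.89 between Unigene173248 and Unigene279898 and 0.86 between Unigene077149 and Unigene001180. Unigene279898 ran against Unigene077149 with r = -0.73 and against Unigene001180 with r = -0.64. Unigene014702 belonged to neither pair, with r between 0.11 to Unigene279898 and 0.61 to Unigene001180. These are descriptions over 6 libraries, in part fixed by the choice of unigenes by their highest tissue. Over the 4 tissues other than young stem and seed, r was 0.99 between Unigene173248 and Unigene279898, with pericarp as their highest tissue. Between Unigene077149 and Unigene001180 it was 0.30.

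Among the 45 unigenes of other enzymes on the triterpenoid list that reached 5 FPKM in some tissue, those most like the seed unigenes were lupeol synthases, which make the lupeol skeleton. LS Unigene126127 had 3.19 FPKM in inflorescence, 130.31 in young stem, 50.39 in pericarp, 194.6 in seed, 3.02 in mature leaf and 2.84 in young leaf, an r of 0.99 with Unigene173248 and 0.91 with Unigene279898. LS Unigene113070, at a lower level, had 14.66 FPKM in young stem, 7.33 in pericarp and 30.66 in seed and between 0.66 and 1.43 in the other 3, and its r was 0.97 with Unigene173248 and 0.94 with Unigene279898. The third most like was in both cases a squalene epoxidase (SQE), Unigene131120 with r = 0.77 to Unigene173248 and Unigene020172 with r = 0.80 to Unigene279898. Over the 4 tissues other than young stem and seed, Unigene173248 and LS Unigene126127 had r = 0.98, with pericarp well above the leaves and inflorescence in both. For scale, 0.383% of the 44941 unigenes of at least 5 FPKM in some tissue reached an r of 0.95 with Unigene173248, and 2 of the 45 triterpenoid unigenes did, both of them LS. For each of the other 4 AO unigenes, Unigene279898 included, 0 of the 45 reached it, beside 0.287% to 0.754% of all unigenes compared. By rank the likeness was looser, with Spearman's rho of 0.83 for Unigene173248 with LS Unigene126127, since the tissues at low level did not keep their order. In young stem the FPKM of Unigene173248 was 1.83 times that of LS Unigene126127 and in seed 1.46 times, but in pericarp it was 0.707 times.

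**Figure D4:**
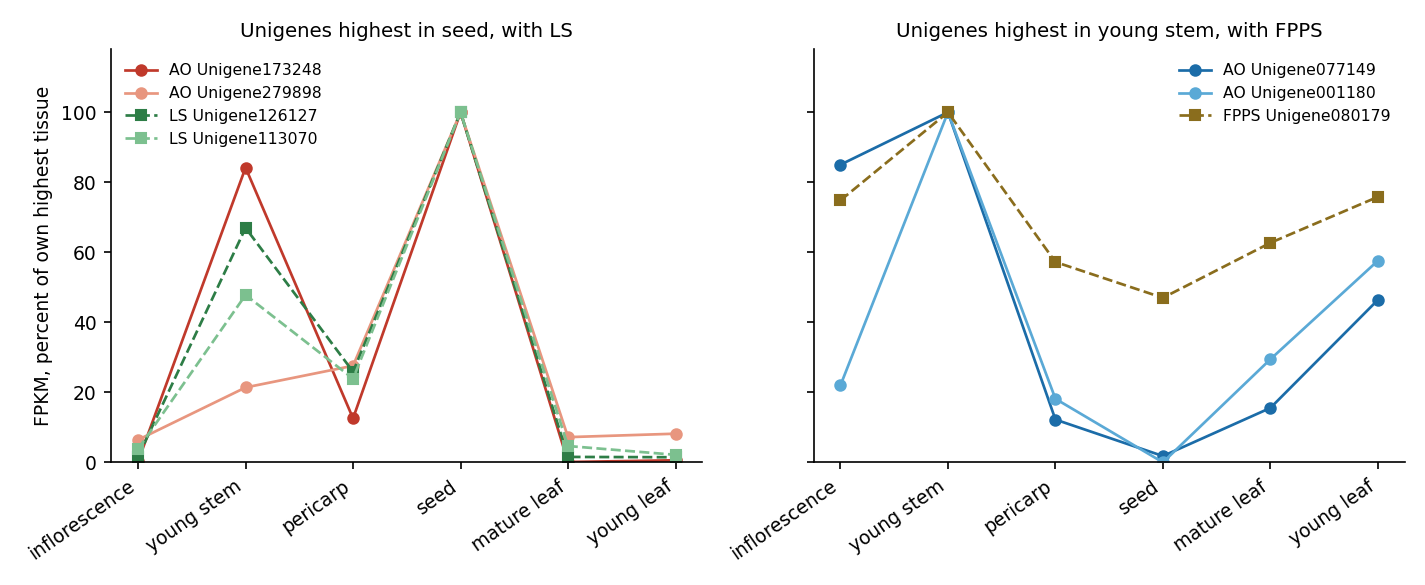
FPKM as a percentage of each unigene's own highest tissue (vertical axis) over the 6 tissues, for the seed unigenes with LS Unigene126127 and Unigene113070 (left) and the young stem unigenes with FPPS Unigene080179 (right). Lines join the points of 1 unigene and stand for no order of tissues. LS Unigene126127 and Unigene173248 are high in young stem and seed and near 0 in leaves and inflorescence.

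The young stem unigenes were compared with the same list. It leaves out AO, so every candidate was annotated as another enzyme. The list includes cycloartenol synthases, which lead to sterols. Farnesyl diphosphate synthase (FPPS) Unigene080179, which makes the precursor shared with sterols, came first for both Unigene077149 (r = 0.94) and Unigene001180 (r = 0.92). Its own range was narrow, with 41.94 FPKM in inflorescence, 56.04 in young stem, 32.07 in pericarp, 26.34 in seed, 35.14 in mature leaf and 42.50 in young leaf. Over the 4 tissues other than young stem and seed, its r was 0.94 with Unigene077149 and 0.61 with Unigene001180. For Unigene077149, SQE Unigene035669 (r = 0.88) and squalene synthase Unigene051925 (r = 0.85) followed. For Unigene001180 the next were SQE Unigene106996 (r = 0.86) and AS Unigene240919 (r = 0.84), the only amyrin synthase among the nearest 3 of any of the unigenes. AS Unigene240919 had 8.11 FPKM in young stem and 14.29 in young leaf, while seed listed it at 0. Unigene014702, with a single value above 0, was nearest to LS Unigene002975 (r = 0.86), which had 14.93 FPKM in young stem. Its r states little more than that young stem was the highest tissue of both.

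In the study's list of cytochrome P450 unigenes, of which 190 reached 5 FPKM in at least 1 of the 6 tissues, Unigene288425 was the most like both seed unigenes, with r = 0.95 to Unigene173248 and r = 0.96 to Unigene279898. It had 16.74 FPKM in young stem, 11.79 in pericarp and 38.19 in seed. The next were Unigene072762 for Unigene173248 (r = 0.88), with 82.36 FPKM in young stem and 585.6 in seed, and Unigene174127 for Unigene279898 (r = 0.94), with 6.87 FPKM in young stem and 317.87 in seed. For the young stem unigenes the nearest were Unigene083428 (r = 0.91) and Unigene079470 (r = 0.90) to Unigene077149, Unigene273136 (r = 0.97) and Unigene246943 (r = 0.94) to Unigene001180, and Unigene035974 and Unigene094196 (r = 0.99 each) to Unigene014702. Unigene273136 was the most abundant of these, with 83.03 FPKM in young stem and 3.35 in seed. As Unigene014702 had a single value above 0, its r states little more than that young stem was the highest tissue. Its Spearman's rho was 0.66 with Unigene035974 and 0.70 with Unigene094196. The functions of these P450 unigenes are not annotated further in the sources used here. They were picked as the highest r among 190 candidates, over 6 tissues. For scale, 0.287% to 0.754% of the 44941 unigenes of at least 5 FPKM in some tissue reached an r of 0.95 with each of the 5.

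The unigenes annotated as AS and LS differed in where they were expressed. Whether they supply these AO unigenes was not tested. The summed FPKM of the 49 AS unigenes was 176 in inflorescence, 136 in young stem, 301 in pericarp, 63.3 in seed, 197 in mature leaf and 266 in young leaf. That of the 19 LS unigenes was 15.5 in inflorescence, 206 in young stem, 98.5 in pericarp, 249 in seed, 24.8 in mature leaf and 30.6 in young leaf. The AO sum was thus 2.01 times the AS sum in inflorescence, 3.89 times in young stem, 0.784 times in pericarp, 9.59 times in seed, 1.31 times in mature leaf and 0.811 times in young leaf. The LS sum was above the AS sum in young stem, at 1.52 times, and in seed, at 3.93 times, and between 0.0880 and 0.328 times the AS sum in the other 4 tissues. Of the LS sum, Unigene126127 alone made up 130.31 in young stem and 194.6 in seed. No AS unigene reached a comparable level in seed, where the highest, Unigene074933, had 13.46 FPKM. In young stem the highest, Unigene081022, had 21.45 FPKM and was most abundant in young leaf with 57.58. These sums and ratios depend on how many unigenes a gene was assembled into, which was not examined.

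**Figure D5:**
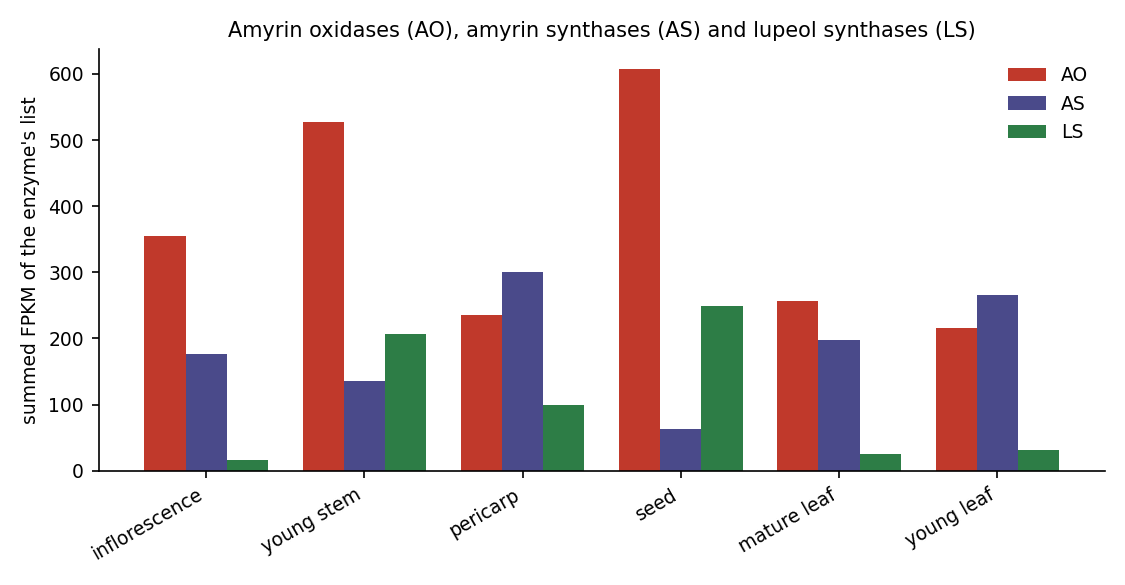
Summed FPKM (vertical axis) of the unigenes annotated as amyrin oxidase (AO, 42), amyrin synthase (AS, 49) and lupeol synthase (LS, 19) in the 6 tissues. In seed the AO sum is 607, the AS sum 63.3 and the LS sum 249, and in pericarp the AS sum of 301 is the highest of the 3.

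Along the pathway, the share of unigenes more abundant in young stem than in seed varied by enzyme. Of those that reached 1 FPKM in some tissue, 2 of 3 FPPS, 1 of 5 squalene synthase, 8 of 26 SQE, 13 of 43 AS and 8 of 17 LS unigenes were at least 2-fold higher in young stem, beside 17.4% of all unigenes. At least 2-fold lower in young stem were 0 of 3 FPPS, 1 of 5 squalene synthase, 5 of 26 SQE, 5 of 43 AS and 2 of 17 LS unigenes, beside 16% of all unigenes. None of the 7 cycloartenol synthase unigenes, which lead to sterols, was past 2-fold either way, nor was any of the 3 cucurbitadienol synthase unigenes. A single cycloartenol synthase unigene made up 39.95 of the enzyme's summed 41.14 FPKM in young stem and 26.83 of 26.92 in seed. The others were low in both tissues, where the pseudocount of 1 narrows differences. The median difference, young stem minus seed on the log2(FPKM + 1) scale, was 1.06 for FPPS, 0.90 for LS, 0.35 for cycloartenol synthase, 0.31 for SQE, 0.26 for AS, 0.05 for cucurbitadienol synthase, -0.17 for AO and -0.28 for squalene synthase. Within the LS list, Unigene113070 was one of the 2 unigenes at least 2-fold lower in young stem, with a difference of -1.02, and Unigene126127 had a difference of -0.57, beside -2.19 for Unigene279898 and -0.25 for Unigene173248.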

How the data were processed

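RNA from 7 tissues was sequenced as 1 strand-specific paired-end library each. The authors trimmed the reads with Trimmomatic, mapped them with Bowtie to their own *de novo* assembly and deposited FPKM values estimated with RSEM (the versions of Trimmomatic and RSEM are not given in the sources used here). FPKM holds no read counts. The series table and the tissue tables differed in 0 values. Enzyme names came from the study's lists. Several unigenes of a list may stem from the same gene, which was not examined. Sums, shares and counts over a list depend on it. The unigenes and lists were chosen with earlier results of these data known. Named unigenes are the 5, the highest other AO unigene of each tissue, the AO numbered next to one of them, AO near-exclusive to mature stem, the AS and LS highest in young stem or seed, and for each of the 5 the 3 triterpenoid and 2 P450 unigenes with the highest r. Unigene300553 was added after its value was seen. Differences are of log2(FPKM + 1), with a pseudocount of 1, counts are past 2-fold for unigenes of at least 1 FPKM in some tissue, and likeness is Pearson's r over 6 tissues. Relative depth is the commonest ratio of values of unigenes above 0 in 2 libraries. Alternatives covered pseudocounts of 0.1 and 5, 2 other scalings (TPM and median-of-ratios factors over 5988 unigenes), filters on low values, Spearman's rho, mature stem included and each tissue left out. Metabolite levels were not analysed here. Calculations used Python 3.11.15, numpy 2.4.6, pandas 2.3.3 and matplotlib 3.10.9, and were tested on simulated data.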

Additional observations from a re-analysis of the deposited data

How the results depend on the processing

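Of 102 values recomputed under alternatives, 91 stayed within 1.5 times of the value reported (within 0.1 for r), and none changed sign. Counts and shares cannot change sign, so the latter concerns only the differences and r. The shares could move little, as their alternatives only dropped unigenes of low FPKM from the sums. The young stem minus seed differences of Unigene001180 and Unigene014702, both listed at 0 in seed, were not among the values recomputed. With a pseudocount of 5, the young stem minus seed difference of Unigene077149 was 4.25. Counted on TPM, 0 AO unigenes peaked in pericarp. Among AO unigenes of at least 5 FPKM, 7 peaked in mature leaf, in place of 11 of any level above 0, and 0 in young leaf, in place of 4. Spearman's rho with the nearest unigene was 0.83 for Unigene173248, 0.77 for Unigene279898 and 0.70 for Unigene014702, whose r with a pseudocount of 0.1 was 0.71. With mature stem included, the r with FPPS Unigene080179 was 0.81 for Unigene077149 and 0.69 for Unigene001180. Over the 4 tissues other than young stem and seed, an alternative chosen after seeing the data, it was 0.61 for Unigene001180 and undefined for Unigene014702. The cause of these shifts was not tested. When each tissue was left out in turn, r with the nearest unigene lay between 0.87 and 0.95 for Unigene001180, 0.90 and 0.98 for Unigene077149, 0.99 and 1.00 for Unigene173248, and 0.90 and 0.99 for Unigene279898. Without replicates or read counts, the error of each FPKM is unknown.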

Other observations

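Of the AO unigenes outside the 5, Unigene228267 was the highest in inflorescence, below Unigene077149. It had 60.1 FPKM in inflorescence and 2.07 in young leaf and was listed at 0 in the other tissues. Unigene084018 was the highest of all 42 in mature leaf, with 46.5 FPKM there, 18.68 in young leaf and 10.83 in young stem, and it was listed at 0 in seed. In pericarp the highest outside the 5 was Unigene117536 with 25.84, below Unigene279898 and Unigene173248. Unigene017259 had 8.87 FPKM in young stem and 24.08 in seed, where it was the highest outside the 5 and again below these unigenes. A group of 4 AO unigenes was listed at 0 outside mature stem: Unigene280341 with 26.05 FPKM in mature stem, Unigene249079 with 9.86, Unigene067835 with 8.36 and Unigene212349 with 2.43.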
